A study of Mus musculus with 12 samples.

Results

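The vesicular glutamate transporters Slc17a7 and Slc17a6, the NeuroD transcription factors Neurod1, Neurod2 and Neurod6, and the neuronal growth genes Baiap2 and Nrn1 were followed in mouse piriform cortex carrying a Huntington's disease allele. The 7 genes were found by their symbols in the deposited count table, where they are 7 of 48795 rows, and all 7 passed the expression filter that kept 17725 genes. The mice were 6 heterozygous Q140 knock-ins, which have an expanded CAG repeat in 1 of their alleles of Htt and a normal other allele, and 6 wild types. All were C57BL/6, untreated as far as the labels say and 12 months old, with 3 males and 3 females of each genotype. Each library came from a separate animal. The knock-in allele is in every cell of the body, and bulk tissue was sequenced. In such tissue, fewer cells of a type and less RNA per cell cannot be told apart.

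Glutamatergic neurons load glutamate into synaptic vesicles through transporters of the SLC17 family. Slc17a7, also known as VGLUT1, is the main form in the cerebral cortex, and Slc17a6, or VGLUT2, is the main form in the thalamus and much of the brainstem. NeuroD factors are basic helix-loop-helix activators that pair with E proteins on the DNA motif called the E-box. They drive precursors toward the neuronal fate, and several of them stay on in mature excitatory neurons of the cortex and hippocampus. Baiap2 encodes IRSp53, an I-BAR protein that bends membranes and joins Rac to actin assembly in dendritic spines. Nrn1 encodes neuritin, a small protein on the cell surface that is induced by activity and promotes the growth of dendrites and synapses. The last 2 genes are neither transporters nor NeuroD factors, and they were considered with them as genes of the same neurons.

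Promoter sequences of 3 members are shown because their messages varied together between animals or stand for the pair of transporters, and because the E-box is the motif that NeuroD factors read. Each holds the 250 bases before the RefSeq start on GRCm38.p6, in the direction of transcription, with every CANNTG in capitals. The Slc17a7 stretch is chr7:45163671-45163920 on the plus strand, that of Slc17a6 is chr7:51621580-51621829 on the plus strand, and that of Neurod2 is chr11:98329646-98329895 on the minus strand.
Slc17a7: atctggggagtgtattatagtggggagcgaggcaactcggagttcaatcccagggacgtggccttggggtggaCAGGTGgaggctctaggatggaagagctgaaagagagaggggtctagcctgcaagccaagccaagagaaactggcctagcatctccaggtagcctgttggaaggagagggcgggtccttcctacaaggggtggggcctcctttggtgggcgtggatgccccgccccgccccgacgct
Slc17a6: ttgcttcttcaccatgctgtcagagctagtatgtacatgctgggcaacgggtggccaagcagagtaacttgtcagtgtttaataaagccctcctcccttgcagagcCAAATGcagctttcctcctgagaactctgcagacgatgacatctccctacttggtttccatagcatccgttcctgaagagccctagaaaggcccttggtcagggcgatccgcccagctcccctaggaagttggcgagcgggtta
Neurod2: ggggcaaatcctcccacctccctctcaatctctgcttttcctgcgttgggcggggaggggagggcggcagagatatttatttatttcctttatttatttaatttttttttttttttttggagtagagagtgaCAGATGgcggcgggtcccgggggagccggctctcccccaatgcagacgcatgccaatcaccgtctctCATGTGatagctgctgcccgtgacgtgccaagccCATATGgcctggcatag

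The Slc17a7 stretch has 1 E-box, at -177 from the start, the Slc17a6 stretch has 1 at -144, and the Neurod2 stretch has 3, at -118, -51 and -17. RefSeq windows were found for 6 of the 7 members, with 2 for Slc17a6 and none for Nrn1. Counting also the 50 bases after the start, all 7 windows held at least 1 CANNTG on either strand, as did 72.3% of 32851 windows over the genome. CAGATG, an E-box that also matches CANNTG, was in the Neurod2 window and in the second Slc17a6 window, against 17.1% of all windows. CAGCTG, another form of CANNTG, was in none of the 7, against 16.3% of all windows. The cyclic AMP response element TGACGTCA was in none either, against 1.79% of all. A match describes the letters of the window only.

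In the libraries, total counts were 19.6 to 35.2 M reads in Q140 and 24.1 to 33.2 M in wild types. Htt, the gene with the knock-in, had 151 ± 8.18 CPM in Q140 and 196 ± 8.15 CPM in wild types (SD, n = 6 each, where CPM is counts divided by TMM-scaled library totals in M reads). TMM factors, which adjust for library composition, were 0.998 to 1.04 in Q140 and 0.970 to 0.996 in wild types, without overlap. The mitochondrial share of the reads was 7.02 ± 0.770% in Q140, against 6.36 ± 0.557% in wild types (two-sided exact permutation p = 0.113). Genes of cortical excitatory neurons were abundant, at 4247 to 4638 CPM in Q140 and 5108 to 6746 CPM in wild types for the sum of 6 markers. Markers of the hypothalamus and amygdala summed to at most 0.430 CPM in Q140 and 0.449 CPM in wild types. Of the markers of cerebellar granule cells, Gabra6 was at 0 in every animal.

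Per length of transcript, the members spanned a wide range. Slc17a7 was the most abundant, at 271 FPKM in Q140 and 332 FPKM in wild types in the deposited values, and Nrn1 followed at 113 FPKM in Q140 and 142 FPKM in wild types. Baiap2 averaged 54.7 FPKM in Q140 and 63.7 FPKM in wild types, and Neurod2 24.2 FPKM in Q140 and 25.7 FPKM in wild types. These 4 were in the same order in every animal. Neurod6, Neurod1 and Slc17a6 lay below them, at 6.08, 5.84 and 4.21 FPKM in Q140 and 6.41, 6.30 and 5.03 FPKM in wild types, and their ranges over the animals overlapped, so that no order among the last 3 is clear. The FPKM of Nrn1 rests on a length of 1766 bases, against 2249 exonic bases in GENCODE M21.

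**Figure D1:**
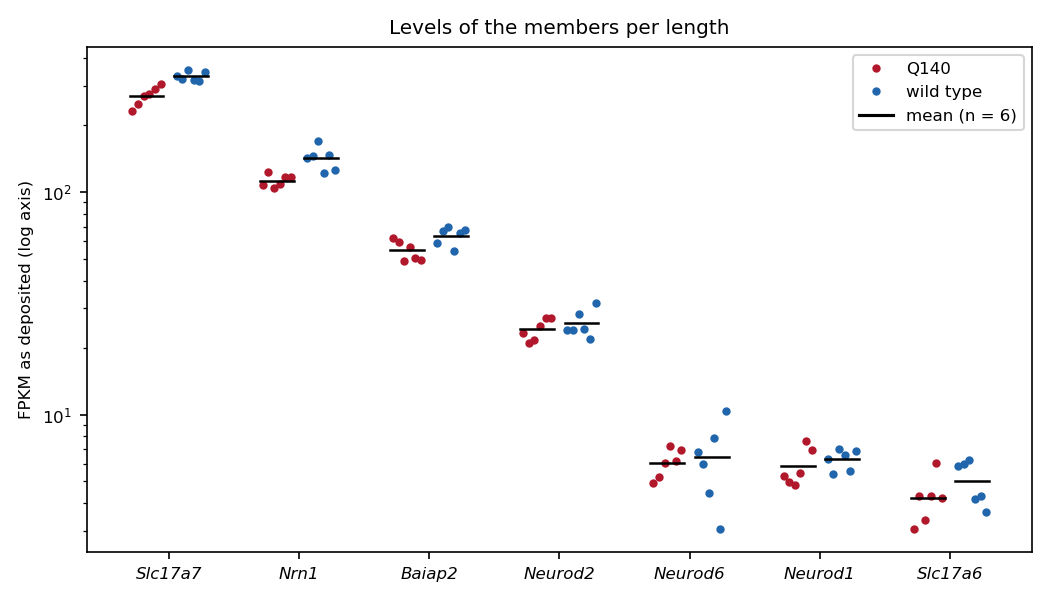
Deposited FPKM (log axis) of the 7 genes in each of 6 Q140 animals and 6 wild types; a point is an animal and a line the group mean. Slc17a7, Nrn1, Baiap2 and Neurod2 form separate levels, while Neurod6, Neurod1 and Slc17a6 overlap at 3.04 to 10.4 FPKM.

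In Q140 cortex 3 of the 7 genes fell, 0 rose and 4 did not pass the test. Of all genes in the test, 1185 fell, which is 6.69% of those tested, and 797 rose. Slc17a7, Baiap2 and Nrn1 fell by 16.8% to 23.0% in mean CPM. The NeuroD factors and Slc17a6 did not pass, and each had a negative estimate whose interval included 0. The test was the quasi-likelihood test of edgeR with sex as a covariate, with a threshold of 0.05 on p-values adjusted by Benjamini-Hochberg over the whole table. Scaling by library totals alone, without TMM, gave 822 lower and 1624 higher genes, so that 33.6% of calls were lower instead of 59.8%. The same 3 members fell there.

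**Figure D2:**
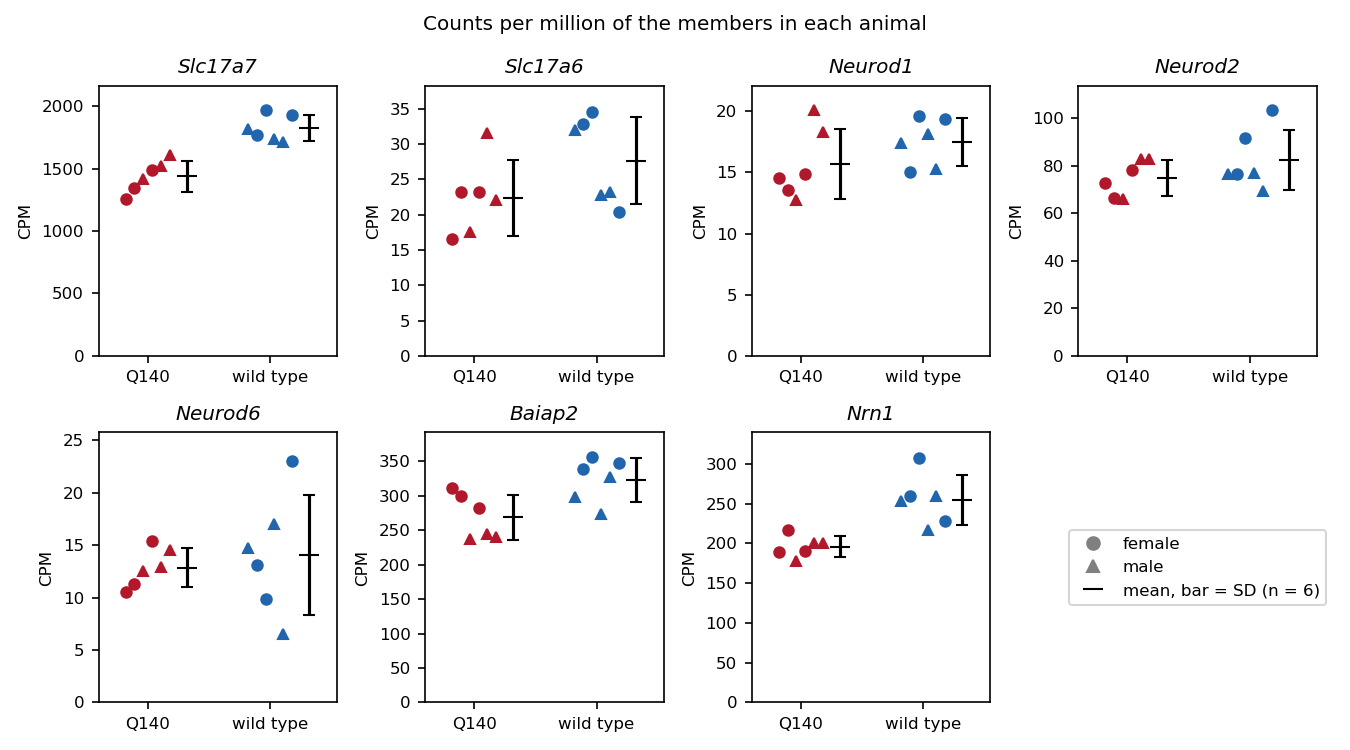
CPM of each of the 7 genes by animal, with Q140 left of wild type, females as circles and males as triangles, and the mean and SD of 6 animals as a bar. Q140 and wild types do not overlap for Slc17a7 and Nrn1, and they overlap for the other 5 genes.

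Among the transporters, Slc17a7 (ENSMUSG00000070570, chromosome 7, 45163949 to 45176142, plus strand, GRCm38) fell. Its lowest, median and highest levels were 1253, 1451 and 1607 CPM in Q140, against 1710, 1793 and 1965 CPM in wild types. All 6 Q140 animals lay below all 6 wild types, a pattern that 480 genes, or 2.71% of those tested, showed. The means were 1437 ± 127 CPM in Q140 and 1822 ± 104 CPM in wild types (SD, n = 6 each). The log2 fold change was -0.34 (SE 0.0613, 95% interval -0.48 to -0.21, edgeR adjusted p = 0.0033).

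Slc17a6 (ENSMUSG00000030500, chromosome 7, 51622006 to 51671119, plus strand) had far fewer reads and varied more. Its lowest, median and highest levels were 16.5, 22.6 and 31.6 CPM in Q140, against 20.3, 27.7 and 34.5 CPM in wild types. The groups overlapped, with Q140 animal 5 close to the 3 highest wild types and wild type 6 below 4 of the Q140 animals. The means were 22.4 ± 5.38 CPM in Q140 and 27.6 ± 6.17 CPM in wild types (SD, n = 6 each), and the log2 fold change of -0.30 had an interval from -0.66 to 0.05 (SE 0.166, edgeR adjusted p = 0.262). The interval includes both no change and a fall as large as that of Slc17a7. Without Q140 animal 5 the estimate was -0.45, with an adjusted p of 0.0603.

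The balance of the transporters differed by less than the spread between animals. Slc17a6 made up 1.52 ± 0.306% of the deposited FPKM of both transporters in Q140 and 1.49 ± 0.312% in wild types (SD, n = 6 each). Their lengths are nearly equal, at 5399 exonic bases for Slc17a6 and 5392 for Slc17a7. Thalamic markers, which include cells with high Slc17a6, summed to 154 to 199 CPM in Q140 and 130 to 197 CPM in wild types, and none of the 9 tested passed. Among their defining genes, Lhx9, Shox2 and Gbx2 averaged below 1 CPM. Most of the sum came from 1 gene, Ntng1, which averaged 101 CPM in Q140 and 104 CPM in wild types. The part of neighbouring tissue in the Slc17a6 level was not tested.

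None of the NeuroD factors passed the test. Neurod2 (ENSMUSG00000038255, chromosome 11, 98325415 to 98329648, minus strand) is a factor of maturing cortical neurons and was the most abundant of them. Lowest, median and highest levels were 66.0, 75.6 and 82.7 CPM in Q140, against 69.1, 76.6 and 103 CPM in wild types. The medians nearly coincide, and the higher wild type mean rests on the females wild type 3, at 91.6 CPM, and wild type 6, at 103 CPM. The log2 fold change was -0.13 (SE 0.0905, interval -0.33 to 0.06, edgeR adjusted p = 0.378). It was -0.065 without wild type 6 and -0.083 without Q140 animal 2.

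Neurod1 (ENSMUSG00000034701, chromosome 2, 79452521 to 79456751, minus strand) drives neuronal differentiation in several tissues. The Q140 animals had a lowest level of 12.7, a median of 14.7 and a highest level of 20.1 CPM, against 15, 17.8 and 19.6 CPM in wild types. In Q140, 4 animals were below the lowest wild type, and the males Q140 5 and 6 were at 20.1 and 18.3 CPM, within or above the wild type range. The log2 fold change was -0.16 (SE 0.111, interval -0.40 to 0.07, edgeR adjusted p = 0.378). It was -0.10 without Q140 animal 3 and -0.25 without Q140 animal 5. Neurod1 shares 201 exonic bases with Cerkl on its own strand and 154 with Gm26755 on the other, so its count is uncertain. Cerkl itself had 2.84 ± 0.423 CPM in Q140 and 3.39 ± 0.456 CPM in wild types (SD, n = 6 each, edgeR adjusted p = 0.228).

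Neurod6 (ENSMUSG00000037984, chromosome 6, 55677822 to 55681263, minus strand), a factor of cortical and hippocampal projection neurons, spread most among the wild types. Lowest, median and highest levels were 10.6, 12.7 and 15.4 CPM in Q140, against 6.57, 13.9 and 23.0 CPM in wild types. The whole Q140 range lay inside the wild type range, and the coefficient of variation was 14.5% in Q140 and 40.8% in wild types. The log2 fold change was -0.12 (SE 0.225, interval -0.61 to 0.36, edgeR adjusted p = 0.772), and it turned to 0.09 without wild type 6. The interval covers changes of either sign.

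Wild type 6, highest in Neurod6, had the lowest sum of striatal and olfactory tubercle markers, at 462 CPM. Wild type 5, lowest in Neurod6, had the highest sum, at 1901 CPM, and the Q140 animals had 622 to 1152 CPM. Of the 8 markers in that list, which are all detected, Penk was lower in Q140 and the other 7 did not pass. The part of neighbouring striatum or tubercle in the Neurod6 level was not tested. The shares of the NeuroD factors were taken within their sum in deposited FPKM. Neurod2 took 67.1 ± 1.21% in Q140 and 67.2 ± 3.73% in wild types (SD, n = 6 each). Neurod1 took 16.1 ± 1.47% in Q140 and 16.5 ± 1.59% in wild types (SD, n = 6 each). The share of Neurod6 ranged over 14.7% to 19.1% in Q140 and 9.96% to 21.1% in wild types.

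Baiap2 (ENSMUSG00000025372, chromosome 11, 119942763 to 120006782, plus strand) fell. Its lowest, median and highest levels were 237, 263 and 311 CPM in Q140, against 273, 333 and 357 CPM in wild types. The groups overlapped, with 3 Q140 animals below the lowest wild type and 4 wild types above the highest Q140 animal, and all 6 Q140 animals were below the wild type mean. The means were 269 ± 32.6 CPM in Q140 and 323 ± 31.9 CPM in wild types (SD, n = 6 each). The log2 fold change was -0.27 (SE 0.0458, interval -0.37 to -0.17, edgeR adjusted p = 0.0025). Males were below females on average in both genotypes, and without sex in the model the estimate was again -0.27, with an edgeR adjusted p of 0.0519.

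Nrn1 (ENSMUSG00000039114, chromosome 13, 36725361 to 36735131, minus strand) fell, and its estimate was the largest of the 7. Its lowest, median and highest levels were 178, 195 and 217 CPM in Q140, against 217, 257 and 308 CPM in wild types. The groups met at 217 CPM without crossing, at Q140 animal 2 and wild type 4. In the deposited FPKM these 2 animals changed places, at 122.7 FPKM in Q140 animal 2 and 122.1 FPKM in wild type 4. The means were 196 ± 13.2 CPM in Q140 and 255 ± 31.7 CPM in wild types (SD, n = 6 each). This is -0.38 on the log2 scale (SE 0.0716, interval -0.53 to -0.22, edgeR adjusted p = 0.0048). Nrn1 shares 501 exonic bases with Fars2 on the other strand, and the strand setting of the counting is not given in the sources used here. Fars2 had 12.2 ± 0.409 CPM in Q140 and 11.0 ± 0.743 CPM in wild types (SD, n = 6 each, edgeR adjusted p = 0.128).

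Most animal names start with letters that the labels leave unexplained, and these prefixes are unevenly spread over the genotypes. RFckQ marks 1 Q140 animal and 4 wild types, RFQ marks 3 Q140 males and 1 wild type male, FMQ marks 1 wild type, and 2 Q140 females have none. Among RFQ animals Slc17a7 was at 1415, 1518 and 1607 CPM in Q140 and 1740 CPM in the wild type. Among RFckQ animals it was at 1486 CPM in Q140 and 1710 to 1965 CPM in wild types. The 4 Q140 animals that share a prefix with wild types were below every wild type of that prefix, and the other 2 have no such wild type. This order rests on 1 wild type in RFQ and 1 Q140 animal in RFckQ, and its share over all genes was not counted.

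The same order held for Baiap2 and Nrn1, on the same few animals. Baiap2 in RFQ animals was at 237 to 245 CPM in Q140 and 273 CPM in the wild type, and in RFckQ animals at 282 CPM in Q140 and 298 to 357 CPM in wild types. Nrn1 in RFQ animals was at 178 to 201 CPM in Q140 and 217 CPM in the wild type, and in RFckQ animals at 191 CPM in Q140 and 254 to 308 CPM in wild types. Prefix was then used as a covariate in place of sex. Log2 fold changes were -0.25 for Slc17a7 (edgeR adjusted p = 0.111) and -0.21 for Baiap2 (adjusted p = 0.128). For Nrn1 the log2 fold change was -0.34 (edgeR adjusted p = 0.101). None of the 7 genes passed in the fit with prefix, in which 254 genes passed over the whole table. With sex left out and no prefix in the model, Baiap2 also did not pass (edgeR adjusted p = 0.0519).

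**Figure D3:**
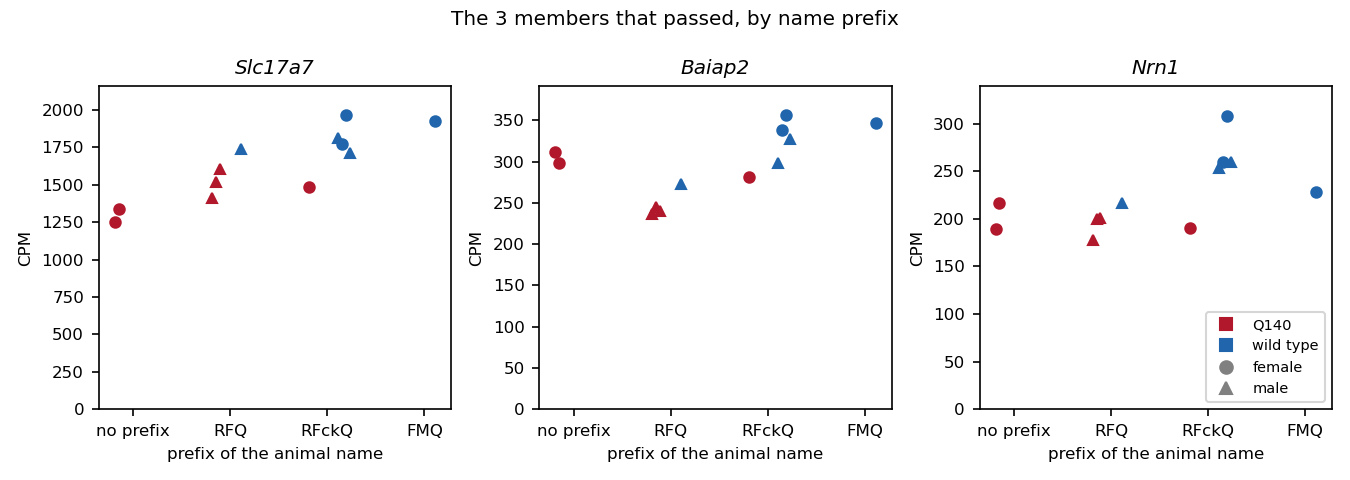
CPM of the 3 genes that fell, by the prefix of the animal name (no prefix, RFQ, RFckQ, FMQ), with Q140 in red left of wild type in blue, females as circles and males as triangles. Within RFQ and within RFckQ, the prefixes with animals of both genotypes, every Q140 animal lies below every wild type.

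The comparison was repeated within each sex. In females 2 of the 7 genes fell, against 4.21% of all genes tested that were lower. Slc17a7 was at 1253, 1341 and 1486 CPM in Q140 females, against 1770, 1930 and 1965 CPM in wild type females, or -0.47 on the log2 scale (SE 0.0737, edgeR adjusted p = 0.0040). Nrn1 was at 190, 191 and 217 CPM in Q140 females, against 228, 260 and 308 CPM in wild type females, or -0.41 on the log2 scale (SE 0.103, edgeR adjusted p = 0.0306). No Q140 female reached the lowest wild type female for either gene. Baiap2 and Neurod1, which did not pass in females, had the same order, so it does not set apart the genes that passed. The share of all genes with this order among the females was not counted.

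The other members did not pass in females. Baiap2 was at 282, 299 and 311 CPM in Q140 females, against 339, 347 and 357 CPM in wild type females (log2 fold change -0.22, edgeR adjusted p = 0.0506). It lay at the threshold and passed in 5 of 16 alternatives, among them DESeq2 (adjusted p = 0.0131) and a fit of females alone (edgeR adjusted p = 0.0487). Neurod2 was at 66.2, 72.9 and 78.3 CPM in Q140 females, against 76.4, 91.6 and 103 CPM in wild type females (-0.32, edgeR adjusted p = 0.0975), and it passed in 2 of 16 alternatives. Neurod1 had an estimate of -0.33 (edgeR adjusted p = 0.195), Slc17a6 of -0.48 (adjusted p = 0.233) and Neurod6 of -0.30 (adjusted p = 0.606).

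In males 1 of the 7 genes fell, against 0.959% of all genes tested that were lower. Baiap2 was at 237, 240.3 and 245 CPM in Q140 males, against 273, 298 and 327 CPM in wild type males, or -0.32 on the log2 scale (SE 0.0639, edgeR adjusted p = 0.0317). Slc17a7 was at 1415, 1518 and 1607 CPM in Q140 males, against 1710, 1740 and 1816 CPM in wild type males (-0.21, edgeR adjusted p = 0.167). Nrn1 was at 178, 200.1 and 201 CPM in Q140 males, against 217, 254 and 260.2 CPM in wild type males (-0.34, edgeR adjusted p = 0.127). For these 3 genes no Q140 male reached the lowest wild type male. How many of all genes tested show this order among the males was not counted. Estimates in males were -0.13 for Slc17a6, 0.01 for Neurod1 and 0.06 for both Neurod2 and Neurod6, with edgeR adjusted p-values of 0.846 to 0.985.

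**Figure D4:**
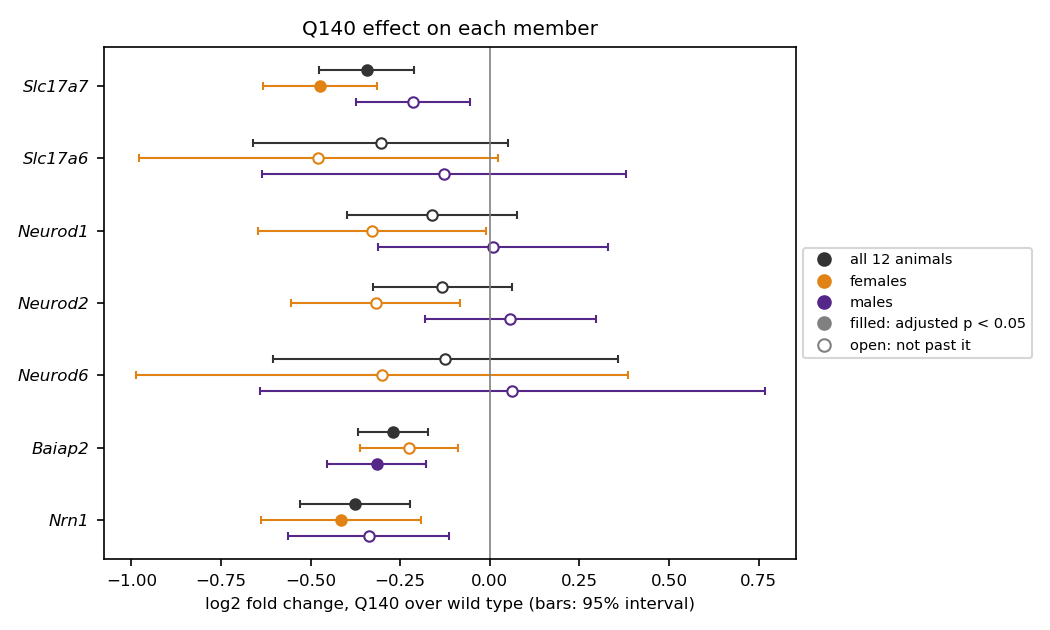
Log2 fold change of Q140 over wild type with its 95% interval for each of the 7 genes, in all 12 animals, in females and in males; filled points passed at an adjusted p below 0.05. Slc17a7 and Nrn1 are filled in females, and Baiap2 is filled in males.

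A call in 1 sex only does not show that the sexes differ, and the difference was tested by itself. For the Q140 effect in males minus that in females, 0 of 17725 genes passed by edgeR (0%), 1633 (9.21%) had an unadjusted p below 0.05 and 23 genes passed by DESeq2, none of them a member. Slc17a7 differed by 0.26 (SE 0.104, unadjusted p = 0.027, edgeR adjusted p = 0.499), with the male estimate nearer 0. Neurod2 differed by 0.38 (SE 0.156, unadjusted p = 0.0312, edgeR adjusted p = 0.501). Neither passed the correction, and the other 5 had unadjusted p-values of 0.13 to 0.608. For Baiap2 the difference was -0.09, with an interval from -0.29 to 0.10, and it was -0.15 without wild type 4 and -0.023 without wild type 5.

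Between the sexes, with genotype in the model, 1 member differed. Baiap2 was lower in males, where 0.457% of all genes tested were lower. Lowest, median and highest levels were 237, 259 and 327 CPM in males and 282, 325 and 357 CPM in females. Within each genotype the male mean was below the female mean, at 241 ± 4.06 CPM against 297 ± 14.8 CPM in Q140 and 299 ± 26.9 CPM against 347 ± 8.90 CPM in wild types (SD, n = 3 each). The log2 fold change of males over females was -0.26 (SE 0.0458, edgeR adjusted p = 0.0207). This call was lost in 5 of the fits that each left out 1 animal. All Q140 males and wild type 4 have the name prefix RFQ, which no female has. In Q140, a difference of sex and one of prefix therefore cannot be told apart. Estimates for the other 6 genes were -0.10 to 0.08, with edgeR adjusted p-values of 0.663 or more.

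After removal of genotype and sex means, some members still varied together from animal to animal. Neurod1 and Neurod2 had a Pearson r of 0.90 over 12 animals (Spearman rho 0.87, and r 0.93 without the 2 animals farthest out). Slc17a7 and Neurod2 had an r of 0.81 (rho 0.83, 0.87 without 2), and Slc17a6 and Nrn1 an r of 0.69 (rho 0.68, 0.65 without 2). Neurod6 and Baiap2 ran opposite, with an r of -0.77 (rho -0.67, -0.70 without 2). The pair of transporters had an r of 0.43. These are descriptions over 21 pairs of genes, and both members of a pair share their library, its depth and its scaling.

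Over the whole table, each member was set beside the genes most like it by the same measure. For Slc17a7 these included Apbb1 (r 0.95), whose product binds the amyloid precursor protein, and Fzr1 (0.95), an activator of the anaphase-promoting complex. For Slc17a6 they were App, the amyloid precursor itself (0.94), Dpp6 (0.93), a subunit of potassium channels, and Hnrnpul2 (0.93). For Neurod2 they included the Nogo receptor gene Rtn4r (0.98) and the potassium channel gene Kcnj9 (0.97). Rtn4r and Kcnj9 fell in Q140, by 0.59 (SE 0.0921, edgeR adjusted p = 0.0016) and 0.51 (SE 0.0862, adjusted p = 0.0024) on the log2 scale, while Neurod2 itself did not pass.

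For Neurod1 the most similar were AI504432 (r 0.96), the serotonin receptor gene Htr3a (0.95) and the kinase gene Camk2d (0.94). For Neurod6 they were Cnih3 (0.95), which encodes an auxiliary protein of AMPA receptors, Cul7 (0.94) and the matrilin gene Matn2 (0.94). For Baiap2 they were Gm38357 (0.96), Mdm1 (0.91) and the DNA demethylation gene Tet3 (0.91). For Nrn1 they were Pkib (0.97), which encodes an inhibitor of protein kinase A, the adenylyl cyclase gene Adcy8 (0.94) and Ints3 (0.94). Of these 12 genes, Gm38357 and Adcy8 fell in Q140, by 0.69 (edgeR adjusted p = 0.0202) and 0.23 (edgeR adjusted p = 0.0400) on the log2 scale. The genes were taken from the top 3 of 17725 for each member, so high values arise from the choice itself.

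Genes around the members were described by lists, each with its count and its median log2 fold change, where the median over all tested genes was 0.0045. Other excitatory neuron genes fell in 9 of 14, with 0 higher and a median of -0.33. Lingo1, Arpp21, Slc30a3 and Ptk2b had the smallest p-values. The kinase gene Ptk2b had 575 ± 28.4 CPM in Q140 and 703 ± 33.8 CPM in wild types (SD, n = 6 each, log2 fold change -0.29, edgeR adjusted p = 0.000926). Inhibitory neuron genes fell in 4 of 15, with 0 higher and a median of -0.08. The 4 were Lamp5, Sst, Adarb2 and Lhx6, which mark subclasses of interneurons, at -0.76 to -0.28.

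For glutamate supply and clearance 2 of 16 genes fell, 0 rose and the median was -0.02. These were Slc1a2, the main astrocyte glutamate transporter (-0.31, SE 0.0823, edgeR adjusted p = 0.0275), and Slc25a22, a mitochondrial glutamate carrier (-0.15, SE 0.0447, edgeR adjusted p = 0.0489). Slc1a5 was at 0.40 and the glutamine synthetase gene Glul at -0.16, and neither passed. Among 7 relatives of the vesicular transporters, 3 were tested and none passed. Slc17a8, the form of a minority of neurons, had 4.62 ± 1.27 CPM in Q140 and 3.83 ± 1.79 CPM in wild types (SD, n = 6 each). Slc17a5, the lysosomal sialic acid carrier, had 19.6 ± 1.21 CPM in Q140 and 19.6 ± 0.410 CPM in wild types, and the nucleotide transporter gene Slc17a9 was below 1 CPM on average in both.

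Of 12 other neuronal basic helix-loop-helix genes 5 had enough reads, and none passed (median -0.04). Bhlhe22 was the most abundant of them, at 26.7 ± 5.11 CPM in Q140 and 28.6 ± 10.6 CPM in wild types (SD, n = 6 each). Atoh8 was at 0.36 and Neurod4 at -0.31 on the log2 scale. Among 7 E proteins and Id inhibitors, the partners and antagonists of NeuroD factors, 1 fell and 1 rose (median 0.10). Id2, an inhibitor that lacks the DNA-binding region, fell to 114 ± 15.3 CPM in Q140, against 138 ± 9.93 CPM in wild types (-0.27, SE 0.0722, edgeR adjusted p = 0.0287). The E protein gene Tcf12 rose to 53.1 ± 1.68 CPM in Q140, against 46.4 ± 5.92 CPM in wild types (0.20, SE 0.0598, edgeR adjusted p = 0.0433). Id3 at 0.32 and Tcf4 at -0.09 did not pass.

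Of 24 relatives and partners of IRSp53 found in the table, 8 fell, 1 rose and 15 did not pass (median -0.04). Wasf1, a WAVE protein that activates actin branching downstream of Rac, had 243 ± 16.2 CPM in Q140 and 294 ± 13.7 CPM in wild types (SD, n = 6 each, -0.27, SE 0.0493, edgeR adjusted p = 0.0034). All 6 Q140 animals, at 226 to 261 CPM, were below all wild types, at 280 to 312 CPM. The adhesion receptors Adgrb2 (-0.27) and Adgrb1 (-0.26), whose family gave Baiap2 its name, and the WAVE subunit Abi2 (-0.20) fell as well, with edgeR adjusted p-values of 0.0071 to 0.0103.

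Of 12 genes, the neuritin relative Nrn1l and activity-regulated genes, 3 fell, 0 rose and the median was -0.31. They were the pentraxin gene Nptx2, with 63.6 ± 18.7 CPM in Q140 and 86.6 ± 11.3 CPM in wild types (-0.48, SE 0.0985, edgeR adjusted p = 0.0079), Arc (-0.40, SE 0.115, edgeR adjusted p = 0.0389) and Junb (-0.42, SE 0.123, edgeR adjusted p = 0.0402). Nr4a1, at -0.41, had an edgeR adjusted p of 0.0637. Of 10 genes of immature neurons 8 were tested. Dpysl5, of growth cone guidance, rose to 37.7 ± 4.28 CPM in Q140, against 31.2 ± 3.14 CPM in wild types (SD, n = 6 each, 0.28, edgeR adjusted p = 0.0247), and the other 7 did not pass (median 0.01).

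**Figure D5:**
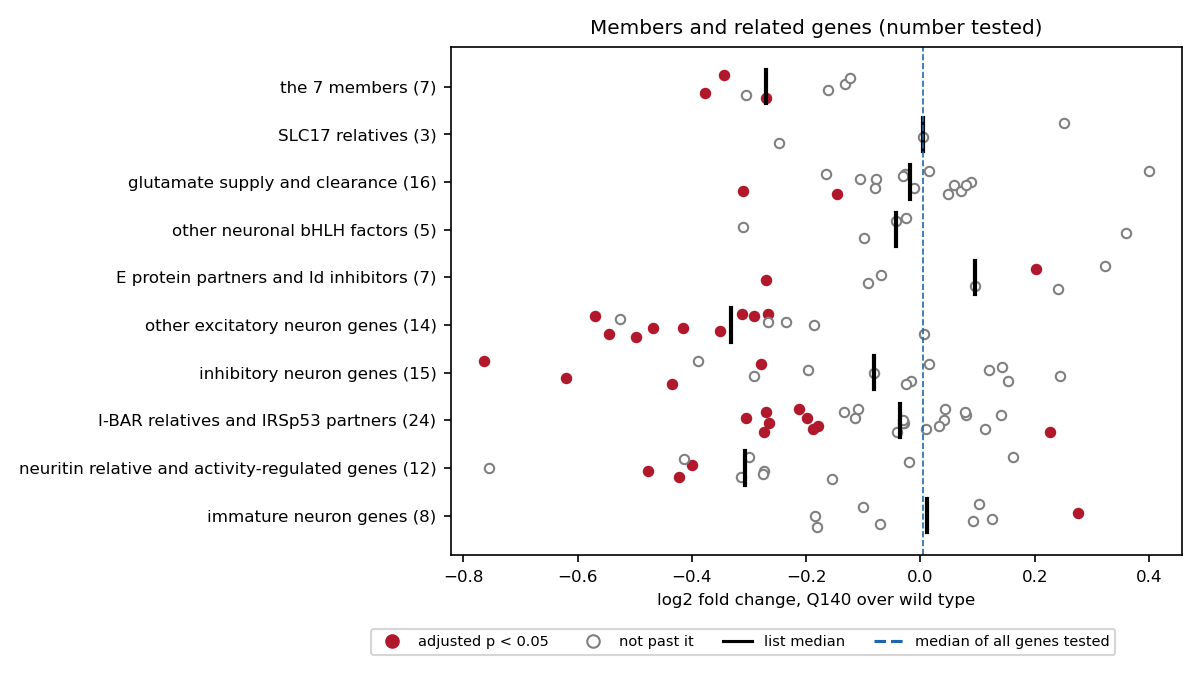
Log2 fold change of Q140 over wild type for the 7 genes and for each tested gene of 9 related lists, with the number tested in brackets; red points passed at an adjusted p below 0.05, black bars are list medians and the dashed line is the median of all genes tested, 0.0045. Other excitatory neuron genes and activity-regulated genes have medians of -0.33 and -0.31, and the remaining 7 related lists lie between -0.08 and 0.10.

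Few single markers of other cell types passed. Median log2 fold changes were 0.18 for oligodendrocytes, 0.14 for astrocytes, 0.11 for microglia, 0.16 for endothelial and mural cells and 0.45 for meninges. They were 0.06 for thalamus, 0.37 for 3 dentate granule cell genes, 0.25 for 2 cerebellar ones and -0.38 for striatum and olfactory tubercle. Over all genes tested the median was 0.0045, and 797 of 17725 genes rose. Of 8 oligodendrocyte genes 3 rose, namely Mog (0.61), Cnp (0.40) and Mag (0.49), and 0 fell. Their sum was 4058 to 5800 CPM in Q140 and 3603 to 5088 CPM in wild types, with all 8 detected. In astrocytes S100b alone of 7 rose, at 211 ± 23.6 CPM in Q140 and 143 ± 8.69 CPM in wild types (SD, n = 6 each), and in microglia Tmem119 alone of 6 rose. Sums were 2102 to 2761 CPM in Q140 and 2216 to 2736 CPM in wild types for astrocytes, and 251 to 299 CPM in Q140 and 224 to 284 CPM in wild types for microglia. None of 6 endothelial and mural or 6 meningeal genes passed, and the meningeal sum was 123 to 307 CPM in Q140 and 25.3 to 294 CPM in wild types. Of the 3 tested genes of dentate granule cells, Prox1 rose, at 19.2 ± 1.58 CPM in Q140 and 14.9 ± 1.11 CPM in wild types (SD, n = 6 each, log2 fold change 0.37, edgeR adjusted p = 0.0041). It made up most of that list's sum, at 19.6 to 23.7 CPM in Q140 and 14.7 to 17.8 CPM in wild types. The list's C1ql2, Dsp and Tdo2 averaged below 1 CPM. On the log2 scale C1ql2 was at -0.66 (edgeR adjusted p = 0.0548) and Dsp at 0.67 (edgeR adjusted p = 0.137), and neither passed. The part of these cells in the falls of Slc17a7, Baiap2 and Nrn1 was not tested.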

How the data were processed

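Per the labels' protocols, RNA of dissected piriform cortex was extracted with a Qiagen RNeasy kit and made into libraries with the Illumina TruSeq stranded preparation, all on plate 1. In the submitters' processing notes the tools are HTSeq 0.12.3, STAR 2.7.5c and SAMtools 1.10 and the builds mm10 and GRCm38. Neither the annotation release nor the strand setting is stated there or in the labels. The deposited count table holds unnormalized whole-number counts of reads per gene. The authors' deposited FPKM values derive from those counts and the column totals: the gene length they imply had a coefficient of variation between animals of at most 5.32e-09 in 15054 genes that had 20 or more counts. Gene coordinates came from GENCODE M21, which matched 48435 of 48795 identifiers.

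The test was the quasi-likelihood test of edgeR 4.0.16 (R 4.3.3) on the counts, after TMM scaling and the default filter by genotype, which kept 17725 genes. Standard errors were computed from the F statistic. The genotype fit had sex as a covariate. Contrasts within each sex and their difference came from a model of 4 groups over all 12 animals. Residual correlations used log2 CPM with a prior count of 2. Intervals cover 95%. The members and the 20 gene lists (9 related, 11 of markers) were chosen with earlier results of these data known, so their counts are descriptions. From each related list the up to 4 genes with the smallest p were named, and for each member the 3 genes with the highest residual correlation. Some genes that this rule names are not reported here. Of 183 listed symbols 1 was absent from the tables. The fits were checked on simulated counts with known changes. Alternatives were other size factors and filters, DESeq2 1.42.0, voom in limma 3.58.1, log2 FPKM with pseudocounts of 0.1 and 1, other covariates, and each animal left out.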

Additional observations from a re-analysis of the deposited data

How the results depend on the processing

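For Q140 against wild type, 25 alternatives were run for each gene. Slc17a7 passed in 23 (log2 fold change -0.38 to -0.25), Nrn1 in 23 (-0.42 to -0.32) and Baiap2 in 22 (-0.29 to -0.21), each lower in all 25, including every fit that left out an animal. The exceptions were prefix as a covariate and the replicate block, both fitted without sex, and for Baiap2 the fit that only left out sex. With prefix 0 members and 254 genes passed. Numbers in the animals' names were tried as a replicate block, although same-numbered animals of different genotype had correlations of deviations of -0.20, 0.11 and 0.08 and the labels do not say that a number pairs animals: 0 members and 1 gene passed. Without 1 animal, 1139 to 2504 genes passed, the lowest without Q140 animal 2 and the highest without Q140 animal 5. Slc17a6 and Neurod1 were negative in all 25 alternatives and passed in none. Without 1 animal, Neurod1 ranged from -0.25 to -0.10 and Neurod2 from -0.18 to -0.065. Neurod2 turned to 0.0026 with prefix. Neurod6 turned to 0.055 with voom, 0.014 and 0.0010 with FPKM pseudocounts of 0.1 and 1, 0.084 with prefix, and 0.023 with the replicate block, and ranged from -0.28 to 0.085 when an animal was left out. In females 1 to 3 members passed with an animal left out, and Neurod6 ranged from -0.54 to 0.11. Baiap2 passed in females with DESeq2, with its size factors, in a fit of females alone and without wild type 4 or 5, and Neurod2 without a filter and without wild type 2. The female call of Nrn1 was lost without Q140 1, 2 or 4 or wild type 2 or 3, and in a fit of females alone (adjusted p = 0.0517). In males 2 members passed without a filter and 2 with DESeq2, Nrn1 joining Baiap2, 0 in a fit of males alone, and 0 to 1 with an animal left out. The male call of Baiap2 was lost without Q140 2, 3 or 6 or wild type 1 or 5. Leaving out an animal moved the male estimates over -0.40 to 0.055 for Slc17a6, -0.13 to 0.18 for Neurod1 and -0.26 to 0.32 for Neurod6, and the male minus female difference over -0.051 to 0.62 for Neurod6, -0.044 to 0.17 for Nrn1 and -0.15 to -0.023 for Baiap2. For males against females 0 to 1 members passed with an animal left out. There the call of Baiap2 was lost without Q140 1, 2, 3 or 6 or wild type 4. The cause of these shifts was not tested. With 3 animals of each sex and genotype, and below 35 CPM for Slc17a6, Neurod1 and Neurod6, intervals are wide.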
